A study of Homo sapiens with 16 samples.

Results

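Peaks on long terminal repeat (LTR) retrotransposons were the regions of the deposited peak table whose repeat annotation put them in the LTR class, and 4808 of the 16092 peaks (29.9%) met this rule. By family, 2330 of them were ERV1, 1569 ERVL-MaLR, 848 ERVL and 27 ERVK, and 34 carried other family names. The rule used the annotation and no read count. The peaks came from chromatin immunoprecipitation and sequencing (ChIP-seq) of BJ-5ta cells, human foreskin fibroblasts immortalized with telomerase, with an antibody that the study's methods give as against H3K9me2 and the labels give as H3. Wild-type cells were compared with ΔLEO1 cells, in which the first exons of LEO1, a subunit of the polymerase-associated PAF1 complex, were removed with CRISPR/Cas9. The ΔLEO1 cells were 1 clone, so an effect of the deletion cannot be told apart from other properties of that clone. Both were grown either in 10% serum, where they proliferate, or in 0.1% serum for 10 days, where fibroblasts enter quiescence. Each of these 4 conditions had 2 ChIP libraries and 2 input libraries (sonicated chromatin with no antibody), lettered A and B. ΔLEO1 10% serum ChIP replicate A held 21 reads in all peaks and was left out, which leaves 7 ChIP and 8 input libraries and 1 ΔLEO1 ChIP library in 10% serum. The question put to the LTR peaks was whether the mark on them differed from that on other peaks, and whether it moved with LEO1 or with serum.

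LTR retrotransposons are remnants of retroviruses and related elements that copied themselves through RNA. An intact copy has an internal part with the viral genes, written "-int" in repeat names, between 2 identical long terminal repeats that hold the promoter and the polyadenylation signal. Recombination between these ends leaves a solitary long terminal repeat, the form most human copies have. H3K9me2, dimethylation of lysine 9 on histone H3, marks repressed chromatin, and methylation of this lysine is a known means by which cells keep retroelements silent.

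Reads were counted per region and library, with a median LTR peak holding 13 to 22 reads in a ChIP library and 6 to 13 in an input library. The 7 ChIP libraries held 217472 to 366633 reads in peaks and the 8 inputs 111132 to 238490. Within a group the replicates' log2 values at LTR peaks correlated at 0.32 to 0.53 (Pearson, over 4808 regions that are not independent), so single regions carried a large counting error, whereas sums over many regions did not. Libraries were scaled by their reads in windows of 2000 bp around annotated transcription start sites (TSS) for ChIP against input, given as CPM with those reads as the total, and within peaks for comparisons among ChIP libraries. The windows at the LEO1 starts held reads in all 15 libraries. Input had 3.38 to 4.80 CPM in ΔLEO1 and 4.66 to 6.17 in wild type, and ChIP had 5.28 to 6.53 in ΔLEO1 and 3.88 to 5.79 in wild type. These windows do not serve as a check of the deletion. Nothing in the sources used here says that letters A and B were separate cultures, so p-values measure the spread between these libraries, which may be technical.

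The LTR peaks fell on 329 repeat names, of which 14 had at least 50 peaks and 110 had a single peak. LTR12C, a long terminal repeat of the HERV9 group of ERV1, was the most frequent with 1047 peaks (21.8% of LTR peaks). THE1B-int, the internal part of a MaLR element, followed with 356, MER52A, an ERV1 long terminal repeat, with 342, and HERVL-int with 192. The 14 frequent names held 2937 of the 4808 peaks.

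Families differed in which part of the element lay under the peak. Of the ERV1 peaks, 109 of 2330 (4.68%) were on internal sequence, against 1122 of 1569 ERVL-MaLR peaks (71.5%), 428 of 848 ERVL peaks (50.5%) and 6 of 27 ERVK peaks (22.2%). For the 6 THE1 and MST elements among the frequent names, 983 peaks were on the internal part and 92 on the matching long terminal repeats. LTR12 names showed the opposite, with 1167 peaks on long terminal repeats and 14 on HERV9 internal sequence, and so did MER52 names, with 514 and 7. These are counts of peaks, and how many copies of each repeat the genome holds was not analysed here.

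LTR peaks were about as wide as other peaks (median 750 bp against 763 bp) and lay farther from genes, with a median of 94323 bp to the nearest TSS against 59335 bp. Peaks on L1 elements lay farther still, at 99581 bp, and peaks on no repeat nearer, at 43983 bp. Within 1000 bp of a TSS there were 5 LTR peaks (0.104%) and 482 other peaks (4.27%). Of the 482, 478 were on no repeat, and L1 and Alu peaks had 2 each. Each peak carries a single annotation, so these counts depend on how a peak near a TSS that also held a repeat was annotated. This was not checked. Chromosomes differed in their share of LTR peaks. On chromosome 4, 431 of 1025 peaks (42.0%) were LTR peaks, on chromosome 3 it was 37.0% and on chromosome 13 it was 36.2%. At the other end, chromosome 22 had 5.08% and chromosome 19 had 10.7%. LTR12C alone made up 12.0% of the peaks on chromosome 4 and 0.508% of those on chromosome 22.

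**Figure D1:**
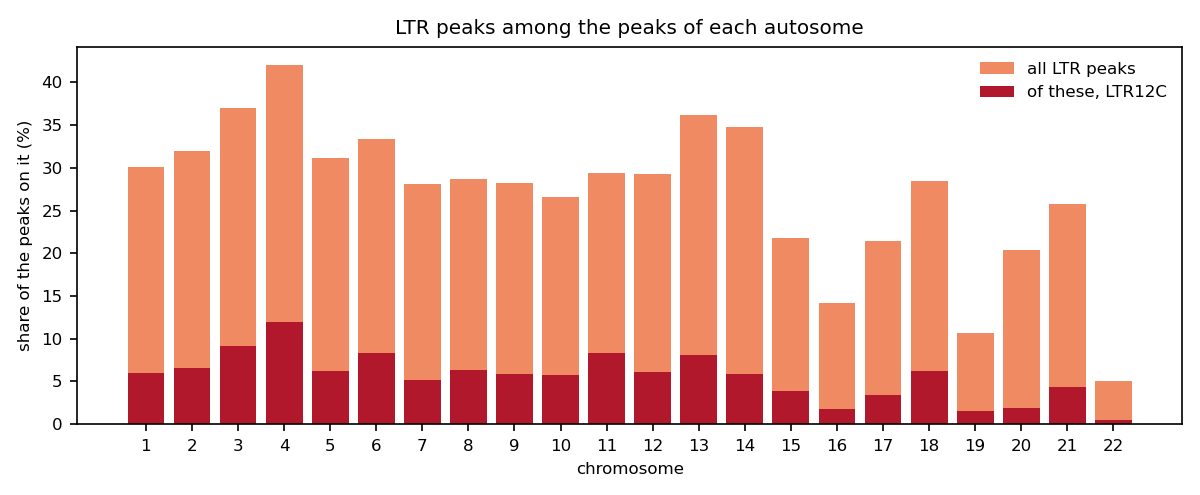
Share of the peaks on each autosome (vertical axis, percent) that were LTR peaks, with the LTR12C peaks among them in the darker part of each bar. The bar is highest on chromosome 4 (42.0%) and lowest on chromosome 22 (5.08%).

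RefSeq gives, on GRCh38.p14, a stretch of 300 bases for each gene start, 250 before the start and 50 from it on, and 13 of these stretches, of 13 genes, overlapped an LTR peak. None of the 13 was on LTR12C. In 7 of the 13 the whole stretch lay inside the peak, and 3 of these were on MER52 repeats. The sequences below are shown as gene starts at LTR peaks. Those of LINC02835 (MER52A, chr4:65241771-65242070, minus strand) and LOC105377181 (MER52C, chr3:83404288-83404587, minus strand) lie wholly inside their peaks, and the longest run they share, 13 bases, is in capitals. That of LOC105372892 (MLT1H, a MaLR repeat, chr1:208686627-208686926, minus strand) is shown for the 2 motifs searched, TATAAA (the TATA box) and AATAAA (the polyadenylation signal), in capitals, and its peak covers the first 214 bases only, so that the start and both motifs lie outside the peak. All are written 5′ to 3′ on the gene's strand, and the annotated start follows the first 250 bases.
LINC02835: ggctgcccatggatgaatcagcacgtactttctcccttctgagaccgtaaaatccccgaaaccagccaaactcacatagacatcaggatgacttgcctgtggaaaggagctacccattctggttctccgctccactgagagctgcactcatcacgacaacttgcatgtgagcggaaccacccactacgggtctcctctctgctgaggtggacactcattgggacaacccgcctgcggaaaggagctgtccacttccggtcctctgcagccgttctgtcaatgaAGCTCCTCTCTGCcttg
LOC105377181: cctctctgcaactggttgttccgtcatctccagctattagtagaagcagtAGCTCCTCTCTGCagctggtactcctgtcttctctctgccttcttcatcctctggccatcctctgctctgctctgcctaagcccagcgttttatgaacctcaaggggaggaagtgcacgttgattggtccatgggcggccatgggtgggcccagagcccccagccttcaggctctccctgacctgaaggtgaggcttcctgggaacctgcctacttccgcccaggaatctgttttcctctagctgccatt
LOC105372892: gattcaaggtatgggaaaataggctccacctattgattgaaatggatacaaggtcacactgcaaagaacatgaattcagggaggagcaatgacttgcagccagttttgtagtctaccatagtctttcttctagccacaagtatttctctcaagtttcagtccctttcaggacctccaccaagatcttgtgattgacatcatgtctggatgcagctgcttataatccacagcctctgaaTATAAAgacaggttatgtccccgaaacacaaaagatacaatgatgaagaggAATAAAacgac
In LOC105372892 the TATAAA began at position -12 from the start and the AATAAA at 40, and the sequences of LINC02835 and LOC105377181 held neither motif. Searched on both strands, TATAAA was in 3 of the 13 stretches (23.1%) and in 11.5% of all 35116 promoters of the same length, and AATAAA in 1 of 13 (7.69%) and in 17.4% of all. A match is a description of the letters and no sign of a factor bound there.

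At LINC02835, a long noncoding RNA, the 7 ChIP libraries ranged from 8.20 to 20.3 CPM with a median of 14.8, and the 8 inputs from 2.81 to 3.97 with a median of 3.28. The 2 ranges were apart, and ChIP over input was 2.07 log2 units (SE 0.19, adjusted p 8.11e-23 in edgeR's quasi-likelihood test). LOC105377181 had 6.86 to 13.1 CPM in ChIP (median 10.4) and 1.47 to 4.57 in input (median 2.75), again without overlap. Over the 13 such peaks ChIP over input ran from 1.27 to 2.34 log2 units. Between ΔLEO1 and wild type in 0.1% serum they ran from -0.62 to 1.50, and none passed the test (smallest adjusted p 0.301).

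ChIP reads exceeded input at almost all peaks of every kind, as regions called for ChIP signal would, and the LTR peaks differed from the rest by a small margin in how far. ERV1 peaks were higher and ERVL peaks lower than the median over all peaks. Among the 14 repeat names with at least 50 peaks, LTR12C had the highest median. A mean LTR peak had 7.55 ± 1.01 CPM (SD over 7 libraries) in ChIP and 1.90 ± 0.198 in input (SD, n = 8), and a mean peak outside LTRs 7.47 ± 0.922 and 1.99 ± 0.198. Per kilobase these levels were 9.31 and 2.35 CPM for LTR peaks and 9.02 and 2.40 for other peaks. LTR12C had 10.3 CPM per kilobase in ChIP and 2.15 in input. With the libraries scaled to the TSS windows, edgeR called 4805 of 4808 LTR peaks higher in ChIP, beside 99.8% of all peaks. Since the peak caller and the libraries it was run on are not given in the sources used here, this count is a description of how peaks were chosen.

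In size, the median LTR peak was 1.98 log2 units higher in ChIP and the median other peak 1.89. ERV1 had a median of 2.09, ERVL-MaLR 1.91, ERVK 1.89 and ERVL 1.85. LTR12C reached 2.27, with MER52D at 2.11, LTR12D, a close relative, at 2.11, MER52C at 2.02 and MER52A at 2.01. The THE1 and MST internal parts lay between 1.93 and 1.98 and HERVL-int at 1.93, near the median of all peaks (1.92), and ERV3-16A3_I-int, internal sequence of an ERVL element, was lowest of the 14 names at 1.79. LTR peaks without LTR12C had a median of 1.90. Beside these, L1 elements, the main active retrotransposon family in humans, had 1.94, simple repeats 2.04, Alu 1.81 and L2 1.75. As a ratio of mean CPM in ChIP to mean CPM in input, ERV1 had 4.30, simple repeats 4.31 and the 199 peaks on other repeats 4.37.

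**Figure D2:**
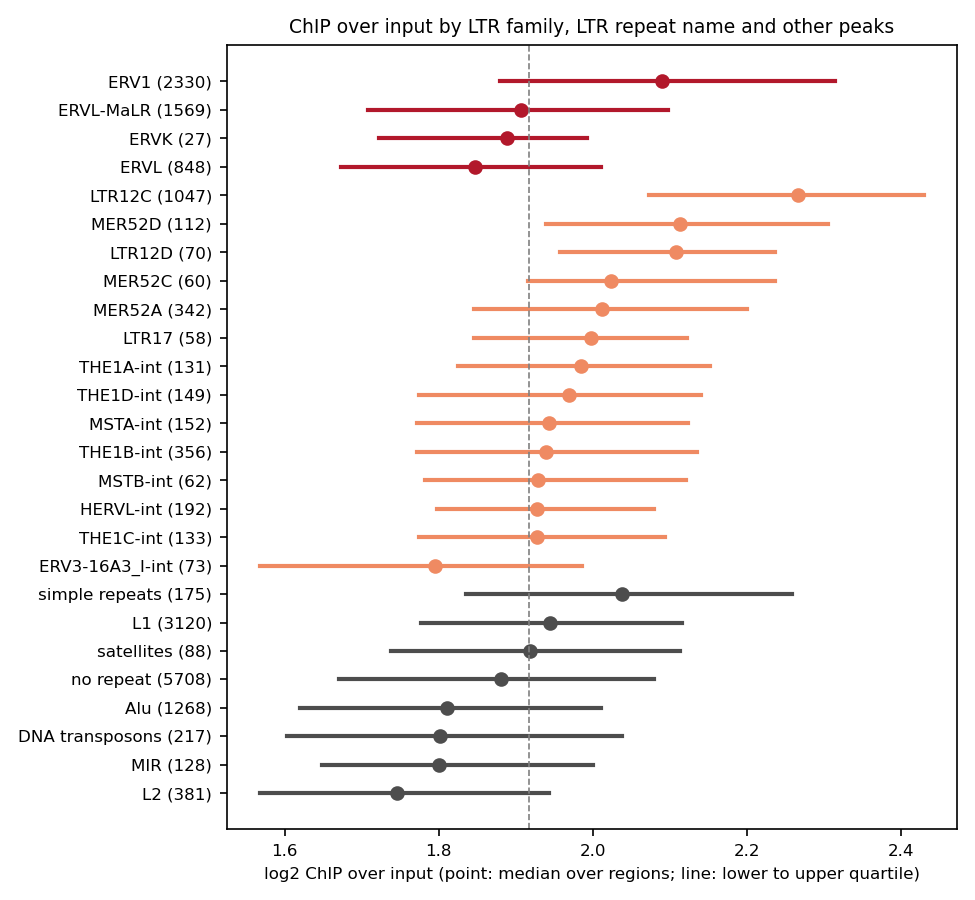
Median log2 ChIP over input (horizontal axis) for LTR families, the 14 LTR repeat names with at least 50 peaks and other kinds of peak, with the number of peaks in brackets, lines from the lower to the upper quartile over regions, and the median of all peaks dashed. LTR12C lies farthest right at 2.27 and L2 farthest left at 1.75.

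Separation of ChIP from input was also frequent in LTR12C and in the MER52 names. In 81.0% of LTR peaks all 7 ChIP values lay above all 8 input values, beside 76.9% of all peaks, and in LTR12C this was 92.1%, in MER52D 92.9%, in MER52C 57 of 60 peaks, in ERVL-MaLR 76.3% and in ERVK 70.4%. The LTR peaks without LTR12C had 77.9%, and 2 kinds outside LTRs exceeded the LTR peaks, L1 with 82.9% and simple repeats with 84.0%. At least 2.5 log2 units were reached by 183 of 1047 LTR12C peaks (17.5%), beside 2.91% of all peaks, 1.62% of the LTR peaks that were not LTR12C and 13.7% of the peaks on simple repeats. Among all peaks the level of LTR12C held in each width class: its median was 2.32 among peaks of 340 to 670 bp, 2.27 among those of 671 to 861 bp and 2.21 among wider ones, against 1.92, 1.87 and 1.89 for peaks outside LTRs. It held on 15 of 15 chromosomes with at least 20 LTR12C peaks, where the LTR12C median exceeded that of the peaks outside LTRs by 0.29 to 0.45. The width classes and chromosomes divide the same peaks and libraries in which LTR12C was found highest, so they are a description and no separate test. Whether reads that fit several copies of a repeat were kept is not given in the sources used here, and the part of this in the LTR12C level was not tested.

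Scaling within peaks moved all peaks by about the same amount and left the order of the families in place. When ChIP and input were scaled to each other within peaks by TMM (a trimmed mean of log ratios), which sets the typical peak to no change, 10 of 4808 LTR peaks passed the test, beside 0.261% of all peaks. Of these, 9 were higher in ChIP, beside 0.118% of all peaks, and 1 was lower. The 9 were 8 LTR12C peaks and 1 MER52A peak, and the lower one was a MER21A peak. On this scale the median of LTR12C was 0.34 log2 units with 89.0% of its peaks above 0, that of ERV1 was 0.16 and that of MER52D 0.18, and ERVL-MaLR (-0.02), ERVK (-0.04) and ERVL (-0.08) lay below 0, with all peaks at -0.01. At an unadjusted p under 0.05, 273 of 1047 LTR12C peaks were higher (26.1%), beside 4.46% of all peaks, and 3 were lower, beside 5.31%.

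The regions with the largest ChIP over input in each family, among those whose ChIP and input values did not overlap, show what single peaks look like. The first of ERV1 was an LTR12C on chromosome 14 (chr14:42482151-42483013), 875726 bp from the start of LRFN5. Its ChIP libraries had 4.56 to 14.5 CPM (median 8.55) and its inputs 0.352 to 1.91 (median 0.844), a log2 ratio of 3.20 (SE 0.27, adjusted p 1.99e-26, edgeR). A MER52A on chromosome 2 (chr2:195125570-195126512) followed, with 4.56 to 12.7 CPM in ChIP, 0 to 1.64 in input and a ratio of 3.12. Another LTR12C, on chromosome 6 (chr6:155866744-155867429), had 4.11 to 13.2 and 0.352 to 2.10 CPM and a ratio of 3.05. For the LTR12C on chromosome 14 and the MER52A the excess also passed the test within peaks (adjusted p 0.00633 and 0.00690).

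Other families reached lower ratios. In ERVL-MaLR the highest was an MLT1A1-int on chromosome 20 (chr20:42868814-42869318), with 4.27 to 9.24 CPM in ChIP and 0 to 1.52 in input, a log2 ratio of 2.92 (SE 0.35). In ERVL it was an LTR33 on chromosome 4 (chr4:153911505-153912054), with 2.76 to 7.18 and 0.191 to 1.38 CPM and a ratio of 2.71 (SE 0.37). ERVK, the youngest of these families in the human genome, had its highest at an LTR22C2 on chromosome 2 (chr2:208910841-208911418), with 3.42 to 8.44 and 0 to 1.92 CPM and a ratio of 2.29 (SE 0.31). The input counts behind these ratios were 0 to 14 reads a library, so the ratios have wide errors. The LTR peaks with the most reads were wide ones. An MLT2B4 on chromosome 3 (chr3:196000913-196003921) had the highest level in both ChIP (26.4 to 35.5 CPM) and input (5.05 to 9.49), and a HERVL-int on chromosome 5 (chr5:41660560-41663352) was second in ChIP with 20.8 to 34.8. Their ratios were 2.01 and 2.26.

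The share of all peak reads that fell in LTR peaks gives 1 value per library, with a 95% Wilson interval of at most 0.267 points to either side, which covers counting error only. It was 30.4% and 30.3% in wild-type ChIP in 10% serum, 30.0% and 29.9% in 0.1% serum, 30.5% in the ΔLEO1 library in 10% serum, and 29.6% and 29.8% in ΔLEO1 in 0.1% serum. The inputs had 29.3% and 29.0% for wild type in 10% serum, 28.9% and 29.4% in 0.1% serum, 29.2% and 28.5% for ΔLEO1 in 10% serum and 29.0% and 28.7% in 0.1% serum. All 7 ChIP libraries thus lay above all 8 inputs. The mean was 30.1% ± 0.318 (SD, n = 7) against 29.0% ± 0.294 (SD, n = 8), a difference of 1.06 points with p = 0.000311 in a two-sided exact permutation test, the smallest p that 7 against 8 can give.

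LTR12C alone gained more than this. Its share was 7.09% ± 0.408 in ChIP (SD, n = 7; 6.44 to 7.56) and 5.68% ± 0.343 in input (SD, n = 8; 5.17 to 6.29), a difference of 1.41 points without overlap (exact permutation p 0.000311, adjusted p 0.00280 over 18 families and repeat names). With LTR12C taken out of the LTR peaks and out of the total, the ChIP and input shares differed by -0.00285 points (exact permutation p 0.988). ERV1 as a whole had 15.3% ± 0.489 in ChIP and 13.7% ± 0.391 in input (SD, n = 7 and n = 8; exact permutation p 0.000311, adjusted 0.00280). Of the 18 sets, all of them LTR families or repeat names, ERV1 and LTR12C were those whose ChIP and input libraries did not overlap. Kinds of peak outside LTRs were not among these sets, and some of their shares also differed. By condition, mean ChIP share less mean input share was 0.143 to 0.227 points for simple repeats and -0.358 to -0.136 for L2. For L1 it took both signs (-0.136 to 0.576). In ΔLEO1 in 10% serum these values rest on 1 ChIP library.

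Smaller sets passed the adjusted test with overlapping ranges. MER52D (0.864% in ChIP and 0.760% in input, exact permutation adjusted p 0.00559), LTR12D (0.431% and 0.387%, 0.00895), MER52C (0.425% and 0.386%, 0.0121) and MER52A (2.48% and 2.32%, 0.0136) had higher shares in ChIP. ERVL (5.31% and 5.65%, 0.0147) and ERV3-16A3_I-int (0.488% and 0.535%, 0.00839) had lower ones. ERVL-MaLR (9.08% and 9.30%, 0.147) and ERVK (0.146% and 0.155%, 0.124) did not pass, nor did the other 8 names, all THE1, MST or HERVL internal parts and LTR17. Shares add up to 100, so a gain in one set lowers the others.

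**Figure D3:**
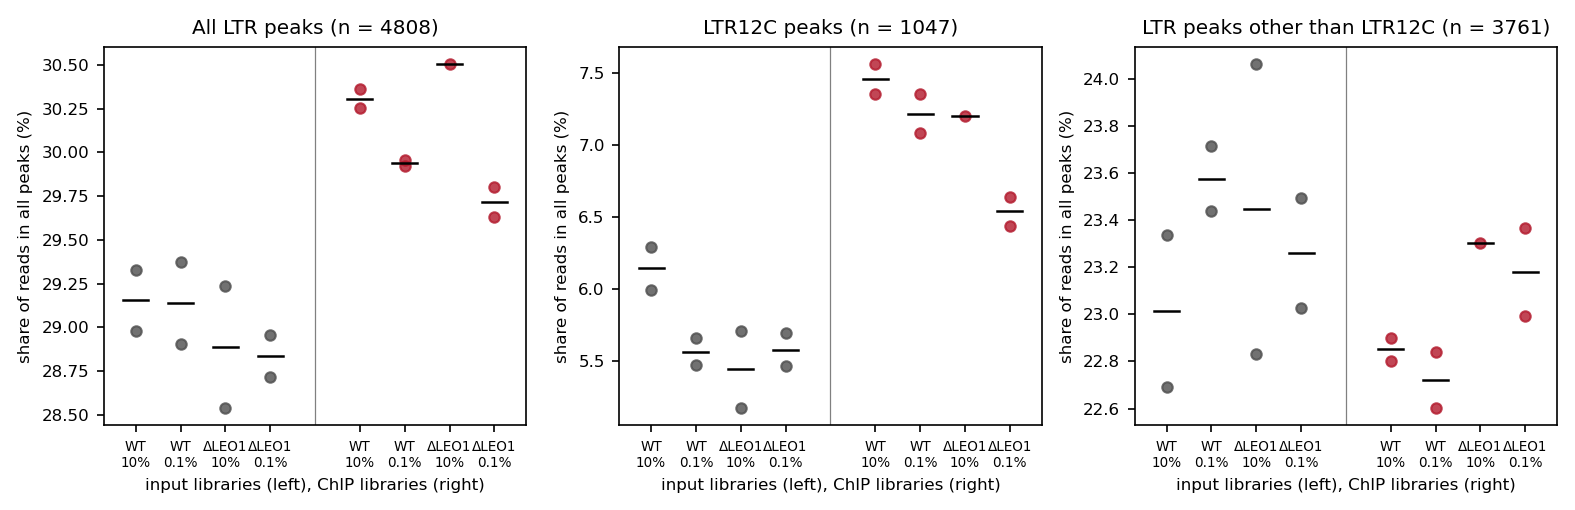
Share of all peak reads (vertical axis, percent; the axes do not start at 0) in LTR peaks, in LTR12C peaks and in the LTR peaks other than LTR12C, with 1 point per library, bars at the mean of each condition, inputs left and ChIP right. ChIP lies above input for all LTR peaks and for LTR12C, whereas for the others ChIP (22.6 to 23.4) falls within the range of input (22.7 to 24.1) but for its lowest library.

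The excess of LTR12C in ChIP was seen in each condition. The mean ChIP share less the mean input share was 1.32 points in wild type in 10% serum, 1.65 in 0.1% serum, 1.76 in ΔLEO1 in 10% serum, where ChIP was 1 library, and 0.963 in ΔLEO1 in 0.1% serum. For the LTR peaks other than LTR12C it was below 0 in all 4, from -0.855 to -0.0813. LTR12C is part of the total here, so its gain lowers their share. With LTR12C out of the total, the difference over all libraries was -0.00285 points, as given above.

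Between genotypes the LTR share as a whole did not differ beyond the spread, at 30.0% ± 0.462 in ΔLEO1 ChIP (SD, n = 3) and 30.1% ± 0.219 in wild type (SD, n = 4; two-sided exact permutation p 0.571, where 3 against 4 cannot go below 0.0571). None of the families passed the test either. For 3 of them the libraries did not overlap, which was also seen outside LTRs, for Alu peaks (values below). ERV1 was lower in all 3 ΔLEO1 libraries (14.8%, 14.6% and, in 10% serum, 15.3%) than in all 4 wild-type libraries (15.9%, 15.7%, 15.7% and 15.4%). ERVL-MaLR was higher in ΔLEO1 (9.14% to 9.41%) than in wild type (8.78% to 9.02%), and ERVL likewise (5.39% to 5.54% against 5.13% to 5.27%). Each of these 3 reached the smallest p the design allows (exact permutation p 0.0571, adjusted 0.171), which does not pass.

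LTR12C went the way of ERV1 with overlap, at 7.20%, 6.64% and 6.44% in ΔLEO1 and 7.08% to 7.56% in wild type (exact permutation p 0.114). The LTR peaks other than LTR12C together went the other way, from 23.0% to 23.4% in ΔLEO1 and 22.6% to 22.9% in wild type (exact permutation p 0.0571). LTR12C is part of the total here, so its lower share raises theirs. With LTR12C out of the total, they were higher in ΔLEO1 by 0.314 points (exact permutation p 0.171). The other ERV1 peaks showed the lower share without overlap, with 8.09% to 8.16% in ΔLEO1 and 8.28% to 8.36% in wild type (exact permutation p 0.0571). MER52A, which made up part of these, had 2.36% to 2.41% and 2.48% to 2.65%. Outside LTRs, the share of Alu peaks was higher in ΔLEO1 without overlap (6.62% to 6.89% against 6.02% to 6.27%), and that of L1 overlapped.

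In the input libraries the LTR share differed by -0.285 points between genotypes (-0.143 in ChIP), and neither difference passed. ERV1 had 13.5% ± 0.223 in ΔLEO1 input and 13.9% ± 0.441 in wild-type input (SD, n = 4 each; exact permutation p 0.143), and LTR12C 5.51% and 5.85% (exact permutation p 0.229). ERVL-MaLR had 9.31% and 9.30%. ERVK, with 27 peaks, was the one set of 18 that did not overlap between the genotypes' inputs (0.161% in ΔLEO1 and 0.148% in wild type, exact permutation p 0.0286, adjusted 0.514). Stretches of chromosomes 3, 4 and 5, known from earlier results of these data to hold fewer input reads in ΔLEO1, contain 295 LTR peaks, 77 of them LTR12C. Without these stretches the ERV1 share in ChIP was 14.5% to 15.1% in ΔLEO1 and 15.2% to 15.6% in wild type, still without overlap. Peak reads per 100 reads in TSS windows also differed with genotype, at 10.7 ± 1.03 in ΔLEO1 ChIP (SD, n = 3) and 13.1 ± 0.836 in wild type (SD, n = 4), and the part of this in the family shares was not tested.

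**Figure D4:**
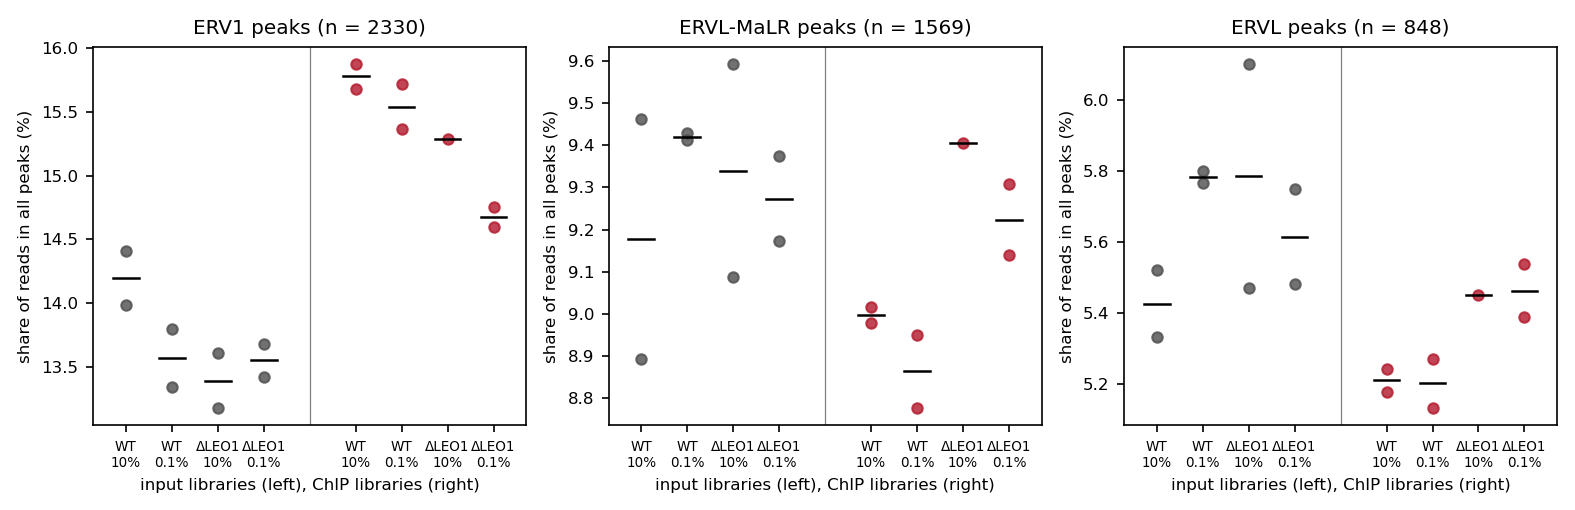
Share of all peak reads (vertical axis, percent; the axes do not start at 0) in ERV1, ERVL-MaLR and ERVL peaks, with 1 point per library, bars at the mean of each condition, inputs left and ChIP right. In ChIP the ΔLEO1 libraries lie below wild type for ERV1 and above it for ERVL-MaLR and ERVL, and in input the genotypes overlap for all 3.

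Region by region, 1 of 4808 LTR peaks passed the test between ΔLEO1 and wild type in 0.1% serum, beside 0.0621% of all peaks. It was lower in ΔLEO1, as were 0.0497% of all peaks. At an unadjusted p under 0.05, 336 LTR peaks (6.99%) differed, beside 8.33% of all peaks. The median was 0.00 over LTR peaks and 0.01 over all peaks, with ERV1 at -0.07, LTR12C at -0.11, MER52A at -0.10, ERVL-MaLR at 0.07, ERVL at 0.08 and ERV3-16A3_I-int at 0.20. LTR12C peaks were below 0 in 660 of 1047 cases. In the inputs of ΔLEO1 against wild type, over both sera, 510 of the 844 tested LTR12C peaks were also below 0. On 14 of 15 chromosomes with at least 20 LTR12C peaks their median in ChIP lay below that of the peaks outside LTRs. On chromosome 4, which holds one of the stretches with fewer ΔLEO1 input reads, the values were -0.44 and -0.27. Peaks and chromosomes come from the same libraries and are not replicates. In 10% serum, with 1 ΔLEO1 library that had to be assumed to vary like the others, 0 of 4808 LTR peaks were called (edgeR, beside 0% of all peaks; 297 at an unadjusted p under 0.05, beside 7% of all peaks, and 41 in DESeq2, which also called none), with a median of -0.06 for ERV1 and for LTR12C and 0.04 for ERVL-MaLR and ERVL. The 2 comparisons share no library, but ΔLEO1 was the same clone in both.

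The called region was a THE1B-int on chromosome 2 (chr2:212106834-212107429), 319229 bp from its nearest annotated start, that of the microRNA MIR548F2. It held 27 and 23 reads in wild-type ChIP in 0.1% serum and 7 and 1 in ΔLEO1. In 10% serum it held 11 and 20 in wild type and 9 in ΔLEO1, and the inputs held 1 to 14. The ΔLEO1 libraries in 0.1% serum were thus below wild type, with a log2 change of -1.98 (SE 0.57, adjusted p 0.0430, edgeR). Leaving out any 1 of the 4 libraries ended the call (adjusted p 0.139 to 0.503), as did DESeq2 (log2 change -2.43), keeping the left-out library (-1.94, adjusted p 1.00 in both) and taking off the input difference (-2.75, 0.371), with the direction kept in these 3. The next by the same rule, and not called, were an LTR12C on chromosome 4 (chr4:158927484-158928171), with 30 and 16 reads in wild type, 8 and 1 in ΔLEO1 and an adjusted p of 0.0893, and a MER50 on chromosome 10 (chr10:19686004-19686760), with 27 and 23, 10 and 2, and 0.118. The LTR12C lies in the stretch of chromosome 4 named above. With the input difference taken off, its log2 change went from -1.73 to -0.93 and that of the MER50 from -1.55 to -1.25 (edgeR adjusted p 0.878 and 0.772). Among the higher ones the rule gave first a MER21B on chromosome 1 (chr1:52452345-52453476), with 18 and 16 reads in wild type, 47 and 22 in ΔLEO1, a log2 change of 1.18 and an adjusted p of 0.118.

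**Figure D5:**
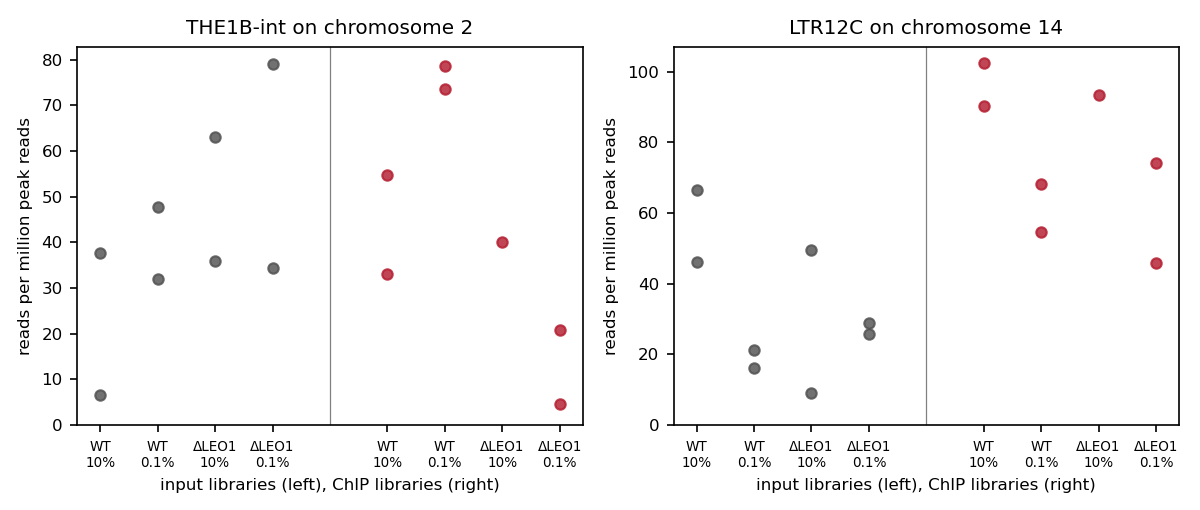
Reads scaled to the library's total in peaks (vertical axis, CPM of peak reads) in each library at the THE1B-int on chromosome 2 that was called lower in ΔLEO1 in 0.1% serum and at the LTR12C on chromosome 14 with the largest ERV1 ratio, inputs left and ChIP right. For the THE1B-int the 2 ΔLEO1 ChIP libraries in 0.1% serum (7 reads and 1 read) lie below the 2 wild-type libraries (27 and 23 reads), and the LTR12C shows ChIP above input in all conditions.

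Scaled to the TSS windows, the median of all peaks in ΔLEO1 against wild type in 0.1% serum moved to -0.28, and the LTR median to -0.29. On that scale, with input not taken off, 25 LTR peaks were called, all lower in ΔLEO1, beside 0.578% of all peaks. Among them were the THE1B-int, the LTR12C on chromosome 4 and the MER50 (edgeR adjusted p 0.00237, 0.00677 and 0.00733). In 10% serum 1 LTR peak was called lower on that scale, beside 0.0124% of all peaks. Relative to the shift of all peaks the LTR peaks stood where they did before. Fly chromatin had been added to each sample as a spike-in, and reads from it were not used here, so the overall level of the mark between genotypes is not given.

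Between 0.1% and 10% serum in wild type, 0 of 4808 LTR peaks passed the test in edgeR, beside 0% of all peaks, with 304 at an unadjusted p under 0.05 (6.32%, beside 7.27% of all peaks). DESeq2 called none, beside 0% of all peaks, with 31 LTR peaks at an unadjusted p under 0.05. The share over all peaks is not given for that count, which is not read as a result about LTR peaks. The median was -0.03 over LTR peaks and 0.00 over other peaks. Nearest to a call was a THE1B-int on chromosome 17 (chr17:53096404-53098160), with 22 and 12 reads in 0.1% serum, 49 and 32 in 10% serum, and a log2 change of -1.10 (SE 0.33, adjusted p 0.233). An LTR12C on chromosome 11 (chr11:23399808-23400681) was on the other side, with 38 and 37 reads in 0.1% serum, 19 and 17 in 10% serum, and a log2 change of 1.04 (SE 0.34, adjusted p 0.318). The LTR share was 29.9% in 0.1% serum and 30.3% in 10% serum, apart by more than the replicates (SD 0.0224 and 0.0782, n = 2 each), yet 2 against 2 cannot go below p = 0.333 in an exact permutation test. Over both genotypes it was 29.8% ± 0.145 (SD, n = 4) and 30.4% ± 0.126 (SD, n = 3), without overlap and at the smallest p possible (exact permutation p 0.0571). In the inputs the shares were 29.0% and 29.0% (exact permutation p 0.886). These groups hold unequal mixes of genotypes (2 ΔLEO1 libraries of 4 and 1 of 3). In wild type alone LTR12C differed by -0.240 points of the -0.371 and the other LTR peaks by -0.131.

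In the inputs of ΔLEO1 against wild type, 4164 of the 4808 LTR peaks had enough reads to be tested, and 0 were called in edgeR, beside 0% of all peaks, with 211 at an unadjusted p under 0.05, beside 4.4% of all peaks. DESeq2 called none, beside 0% of all peaks, with 34 LTR peaks at an unadjusted p under 0.05, a count again given without the share over all peaks. The median was -0.02 over LTR peaks and -0.07 over 844 LTR12C peaks. Without ΔLEO1 10% serum input replicate B, 14 LTR peaks were called, 11 of them lower in ΔLEO1, beside 0.19% of all peaks.

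A list of 16 genes that descend from LTR elements or, like HHLA2, are host genes with an LTR in their transcripts gave a view away from the peaks, since none of the windows used overlapped one. For each gene the window with the most reads in these libraries was taken, whereas the windows of the background were not chosen so, and the counts are therefore not read against it. Against input, scaled by TMM over all TSS windows, 12 of 16 were called higher, beside 36.4% of all windows, 1 was called lower, beside 39.1%, and 3 were not called. ERVW-1 and ERVFRD-1, the syncytins that fuse cells in the placenta, had 11.0 to 17.9 CPM and 9.24 to 16.9 CPM in ChIP and 3.63 to 6.33 and 2.81 to 6.40 in input, without overlap. Their log2 ratios were 1.71 and 1.53. PEG10, an imprinted gene from a Ty3/Gypsy element, was at 1.66, ESRG, a HERVH-derived noncoding RNA of pluripotent cells, at 1.47 and ERVMER34-1, an envelope gene, at 1.28. RTL1, another imprinted Gypsy-derived gene, was the lower one, with 0.919 to 3.69 CPM in ChIP, 2.52 to 5.20 in input and a ratio of -0.57 (adjusted p 0.0417, edgeR). ERV3-1 (0.21), ERVK3-1 (0.18) and ERVK13-1 (0.32) were not called. Between genotypes in 0.1% serum 15 of the 16 had enough reads, and none passed (edgeR, smallest adjusted p 0.186, that of ERV3-1 with a log2 change of -1.07), beside 0.33% of all windows. Between sera in wild type none passed either (smallest adjusted p 0.538, ERVH-1, log2 change -0.48), beside 0.278% of all windows.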

How the data were processed

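ChIP and input libraries of BJ-5ta cells were analysed from 2 tables of raw read counts that the authors deposited, one per peak region and one per window of 2000 bp around transcription start sites. Per the labels and the study's methods, reads were counted with csaw, and the submitters' processing notes name hg38, dm6, STAR 2.7.10a, HOMER and bcl2fastq 2.20.0.422. The peak caller, the libraries it ran on and the treatment of reads with several matches are not given in the sources used here. The members, repeat names, stretches and gene lists were chosen with earlier results of these data known.

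Counts were tested with edgeR 4.0.16 (quasi-likelihood F-test, filterByExpr with a minimum count of 10, TMM) in R 4.3.3, with Benjamini-Hochberg adjustment over all regions and a threshold of 0.05. The prior count was 2, or 0.125 in fits of ChIP with input. ChIP and input were scaled by reads in the 237274 distinct TSS windows. Shares of peak reads were compared with two-sided exact permutation tests in scipy 1.17.1. DESeq2 1.42.0, other scalings, a replicate block and leaving out each library were alternatives. Counts at an unadjusted p in DESeq2 are given without the share over all peaks and are not read as results about LTR peaks. In the simulated 0.1% serum comparison, 19 of 200 regions changed by 1 log2 unit and 147 of 200 changed by 2 were recovered. Named regions were, in each family, the 3 with the largest ChIP over input among those with separate ranges, for genotype in 0.1% serum and for serum up to 5 called each way, filled to 3 by smallest p among regions whose groups did not overlap and whose higher group had at least 10 counts a library, and the 3 with the highest CPM in ChIP and in input. Regions called in the fit within peaks were added after their values were seen. Promoter sequences are from RefSeq on GRCh38.p14.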

Additional observations from a re-analysis of the deposited data

Results flagged for a closer look

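In 4 of 57 groups of 4 libraries, 1 library lay far from the other 3, where chance gives about 1 in 20 groups. Wild-type 10% serum input replicate B had an ERVL-MaLR share of 8.89%, below the 9.41% to 9.46% of the other wild-type inputs, and an MSTB-int share of 0.387%, below their 0.401% to 0.402%. Wild-type 10% serum ChIP replicate A had a THE1A-int share of 0.779%, above the 0.760% to 0.762% of the other wild-type ChIP libraries. ΔLEO1 10% serum input replicate A, the input with the fewest reads, had an ERV3-16A3_I-int share of 0.564%, above the 0.535% to 0.539% of the other ΔLEO1 inputs.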

How the results depend on the processing

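Of 179 recomputed values, 139 of the main ones and 20 of those for single regions were rated the same. Counts of calls were rated so if they stayed close to the main count or were 0 in both. Shares and single regions were rated so if they kept their direction and side of the threshold, or direction alone where no p was available. LTR peaks called between ChIP and input numbered 10 when scaled within peaks and 0 in DESeq2 with its own size factors (210 at an unadjusted p under 0.05), and 4798 to 4808 without any 1 library. The 1 call between genotypes in 0.1% serum became 0 in DESeq2, with all 8 ChIP libraries and with the input difference taken off, 25 with TSS totals, and 0 to 1 without any 1 library, where the 1, without wild-type replicate B, was a higher region. TSS totals gave 1 call in 10% serum (lower). Input calls ran from 0 to 14 without any 1 library. The ChIP excess in LTR share ran from 0.984 to 1.13 points without any 1 library and was -0.00285 without LTR12C. The genotype difference in ChIP ran from -0.405 to 0.0308, the last without ΔLEO1 0.1% serum ChIP replicate A, and was 0.314 without LTR12C (exact permutation p 0.171), an alternative chosen after seeing the data. In input it was higher in ΔLEO1 by 675 CPM of TSS reads (exact permutation p 0.486) against a lower share. The LTR12C on chromosome 22 (chr22:49669951-49671026) went from -1.20 to 0.28 log2 units between sera with input taken off. The cause of these changes was not tested. Within ChIP and within input, deviations of same-letter libraries of different groups hardly correlated (-0.00453 to 0.0257). ChIP was not checked against the input of its letter in this way. With those paired, the LTR share was higher in ChIP in 7 of 7 pairs, by 1.09 points on average (sign permutation p 0.0156). With the replicate block the calls were 4805 for ChIP over input and 1 for genotype in 0.1% serum. In the other comparisons 0 LTR peaks were called with it, while 5 of all peaks rather than 0 were called between sera. Low counts limit single regions.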
